A study of Mus musculus with 58 samples.

Results

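The genes described here are 10 components of the mTORC1 and autophagy pathways, taken by symbol from the 55376 genes counted in every RNA-seq library of the series: Mtor, Rptor, Tsc1, Tsc2, Rheb, Deptor, Ulk1, Becn1, Tfeb and Map1lc3b. The list is one of symbols, and all 10 genes had enough counts to be tested in each comparison. The cells were hematopoietic stem cells (HSCs) of male C57BL/6 mice, sorted from the LSK fraction as CD150+ cells without CD34 and Flk2. Old mice were 24 to 26 months of age. They had food ad lib (OAL, 4 libraries), lifelong 40% caloric restriction (CR) that began at 3 to 4 months (OCR, 4 libraries), or lifelong CR that ended with 4 weeks of refeeding (OCRRF, 2 libraries). Young mice were 3 to 4 months of age, with food ad lib (YAL), with 4 weeks of CR that started at 20% for a week and went on at 40% (YCR), or with such CR followed by 4 weeks of refeeding (YCRRF), and each of these groups had 4 libraries. In the knockdown experiment, HSCs of aged donors received lentiviral shRNA against Kdr (KKD, n = 4) or against Kdr and Bmpr1a together (DKD, n = 4), were transplanted into lethally irradiated recipients and were sorted again as donor-derived LSK CD48- CD150+ cells. Each knockdown had its own scramble shRNA control, GSCR for KKD and DSCR for DKD (n = 2 each). The DKD libraries used 2 different Bmpr1a shRNAs, with 2 libraries for each. Whether a library came from 1 mouse or from several is not given in the sources used here, so p-values measure the spread between these libraries, and fewer cells of a type cannot be told apart from less RNA per cell.

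mTOR is a serine/threonine kinase that, with the scaffold Raptor (Rptor), forms mTORC1, the complex that couples amino acids, energy and growth factors to protein synthesis and cell growth. Rheb, a small GTPase at the lysosome, activates mTORC1, the TSC1 and TSC2 complex switches Rheb off, and Deptor is an inhibitory subunit of mTOR complexes. When mTORC1 is active it restrains autophagy by phosphorylating ULK1, the kinase that starts autophagosome formation, and by holding TFEB, a transcription factor of lysosomal and autophagy genes, in the cytoplasm. Beclin 1 (Becn1) belongs to the lipid kinase complex that acts after ULK1, and LC3B (Map1lc3b) is conjugated to lipid on the growing autophagosome membrane. Autophagy and low mTORC1 activity are both known as features of quiescent HSCs. Transcript levels report neither kinase activity nor autophagic flux.

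Totals ran from 11102898 to 36579392 counts in the diet groups and from 35657999 to 44780217 in transplanted HSCs. Stem cell marker genes were well expressed in all groups, with the 10 markers of the list summing to 3259 to 5800 CPM per library, where CPM is a gene's count scaled to the TMM-adjusted size of its library, and none of them averaged below 1 CPM in any group. The number of genes with at least 1 count was 42071 to 46646 in the old libraries and 22209 to 33496 in the young ones, and olfactory and vomeronasal receptor genes, which HSCs are not known to use, took 553 to 1553 CPM in the old libraries and 69.2 to 498.8 CPM in the young ones. No pair of libraries of a group agreed within sampling noise, and the closest pair had a chi-square of 8.17 per degree of freedom over genes. Replicate 3 of YCRRF stood apart, with 153.0 to 336.0 per degree of freedom against the other YCRRF libraries, which had 28.4 to 56.4 among themselves. The knockdown targets stood at lower levels in most knockdown libraries, without passing the test (edgeR adjusted p = 0.247 for Kdr in KKD, 0.272 for Kdr and 0.602 for Bmpr1a in DKD). Kdr, the VEGF receptor 2 gene, stood at 6.04 and 6.07 CPM in GSCR and at 1.93, 2.21, 3.28 and 2.03 CPM in KKD HSCs, and at 3.97 and 4.62 CPM in DSCR against 1.24, 0.555, 1.60 and 1.35 CPM in DKD HSCs. Bmpr1a, a type I BMP receptor gene, was at 5.21 and 4.43 CPM in DSCR and at 4.44, 0.656, 2.22 and 0.595 CPM in DKD HSCs, so replicate 1 of DKD lay within the range of its scramble libraries.

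The 10 genes covered a wide range of levels. Compared per kilobase of exon sequence in OAL HSCs, Map1lc3b had the highest level (56.7 ± 1.41 CPM per kb, SD, n = 4), followed by Ulk1 (23.7 ± 1.10), Becn1 (18.4 ± 0.949), Rheb (12.4 ± 0.495) and Tsc2 (10.3 ± 0.799). Mtor (6.61 ± 0.419) and Deptor (6.40 ± 0.506) were next and differed by less than their SDs. Tsc1 (5.12 ± 0.196) came after them, and Rptor (3.13 ± 0.155) and Tfeb (2.97 ± 0.259) were lowest and differed by less than the SD of Tfeb. Map1lc3b ranked first per kb in each of the 10 groups. In all 4 transplanted groups Rheb ranked above Ulk1, while in all 6 diet groups Ulk1 ranked above Rheb. By the paper's methods, the transplanted HSCs also differed in sort gate, RNA extraction and sequencer. These differences and transplantation cannot be told apart here. The plot of CPM by diet group shows that the YAL libraries were more widely spread than the OAL libraries, with a larger SD for each of the 10 genes.

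**Figure D1:**
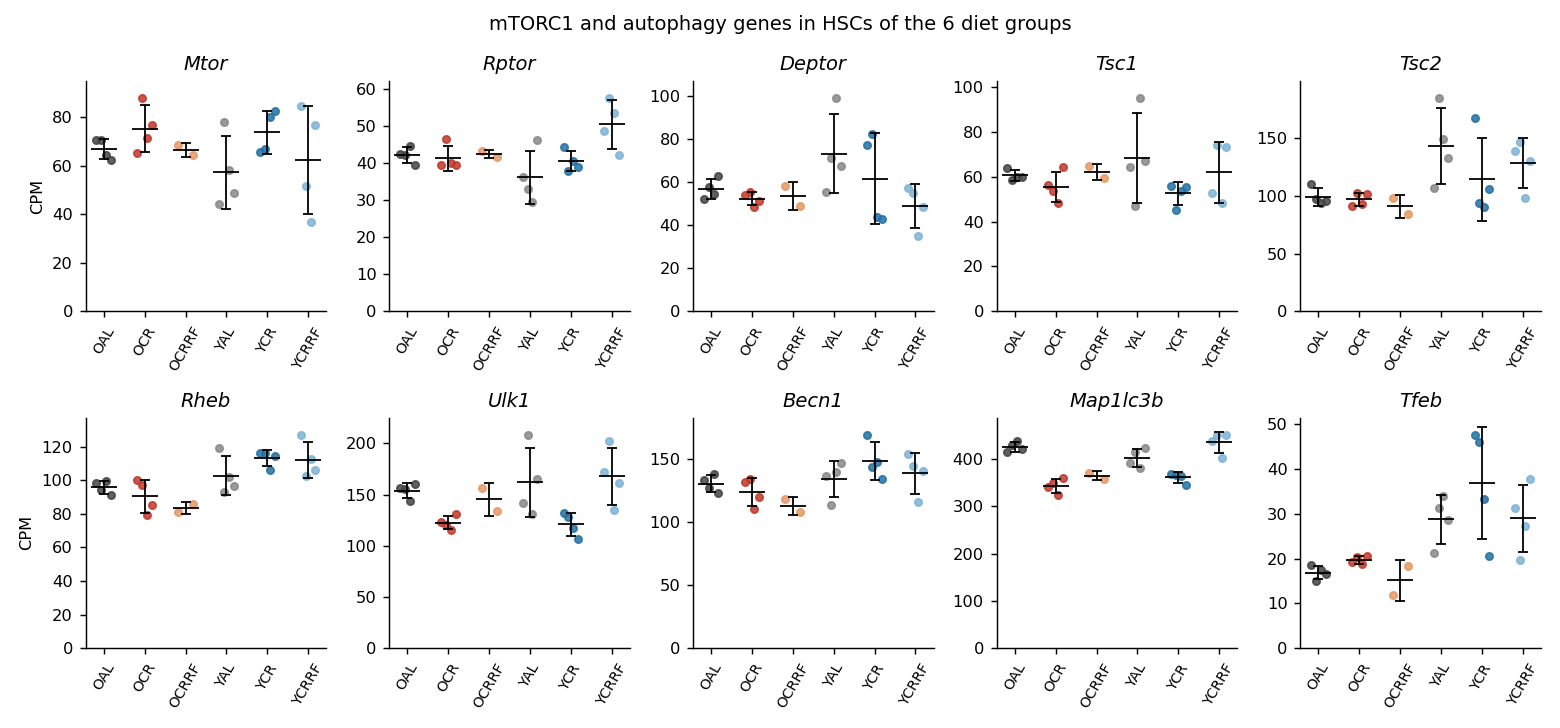
CPM of each of the 10 genes (vertical axes, starting at 0) in the 6 diet groups, 1 point per library, with the group mean and SD in black. Map1lc3b of all 4 OCR libraries (323.9 to 359.5 CPM) lies below all 4 OAL libraries (414.5 to 439.2 CPM), and Tfeb is lower in old than in young ad lib HSCs.

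Lifelong CR was compared with ad lib feeding in old HSCs to ask how long-term nutrient restriction alters the transcripts of this pathway. Ulk1 and Map1lc3b fell in OCR HSCs, and none of the 10 genes rose. The other 8 genes did not pass the test, with log2 fold changes from -0.11 for Tsc1 to 0.24 for Tfeb. Ulk1 (ENSMUSG00000029512, chr5:110784488-110810097, minus strand, mm10) measured 156.1, 155.7, 143.5 and 159.9 CPM in OAL and 123.4, 120.6, 115.3 and 130.8 CPM in OCR libraries. Every OCR library was below every OAL library. The log2 fold change of Ulk1 was -0.31 (SE 0.079, edgeR adjusted p = 0.0139), a decrease of 19%. This call was lost without replicate 1 of OAL (adjusted p = 0.0560) and in a fit of all 6 diet groups together (log2 fold change -0.33, adjusted p = 0.775). Map1lc3b (ENSMUSG00000031812, chr8:121590361-121598760, plus strand) measured 414.5, 429.4, 439.2 and 421.9 CPM in OAL and 340.5, 348.8, 323.9 and 359.5 CPM in OCR libraries. Again the groups were fully separated. Its log2 fold change was -0.30 (SE 0.076, edgeR adjusted p = 0.0155), and the call was kept under every alternative run, with adjusted p from 0.00252 to 0.0475. The 2 members called in the lower direction are read against 3.03% of all tested genes called lower in OCR HSCs, against 2.54% called higher, for 5.57% in all.

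Among the genes that did not pass, Tfeb was closest to the opposite direction. Tfeb was at 18.5, 15.0, 17.4 and 16.5 CPM in OAL and at 19.2, 20.3, 18.9 and 20.6 CPM in OCR libraries. The lowest OCR library lay just above the highest OAL library, and the log2 fold change was 0.24 (SE 0.11, edgeR adjusted p = 0.278). In all, 3 of the 10 genes had OCR and OAL libraries that did not overlap, against 11.4% of all tested genes. Mtor, the kinase itself, ran from 62.1 to 70.5 CPM in OAL and from 64.97 to 87.7 CPM in OCR libraries, with a log2 fold change of 0.19 (95% confidence interval -0.0036 to 0.38, edgeR adjusted p = 0.324). The intervals of the remaining genes included 0, and those of Tsc1 and Deptor reached decreases near the size of the called ones. For Rptor the interval of the log2 fold change was -0.20 to 0.18, and for Tsc2 it was -0.18 to 0.16. For Rheb it was -0.24 to 0.11, for Tsc1 -0.30 to 0.083, for Deptor -0.28 to 0.081 and for Becn1 -0.22 to 0.12.

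**Figure D2:**
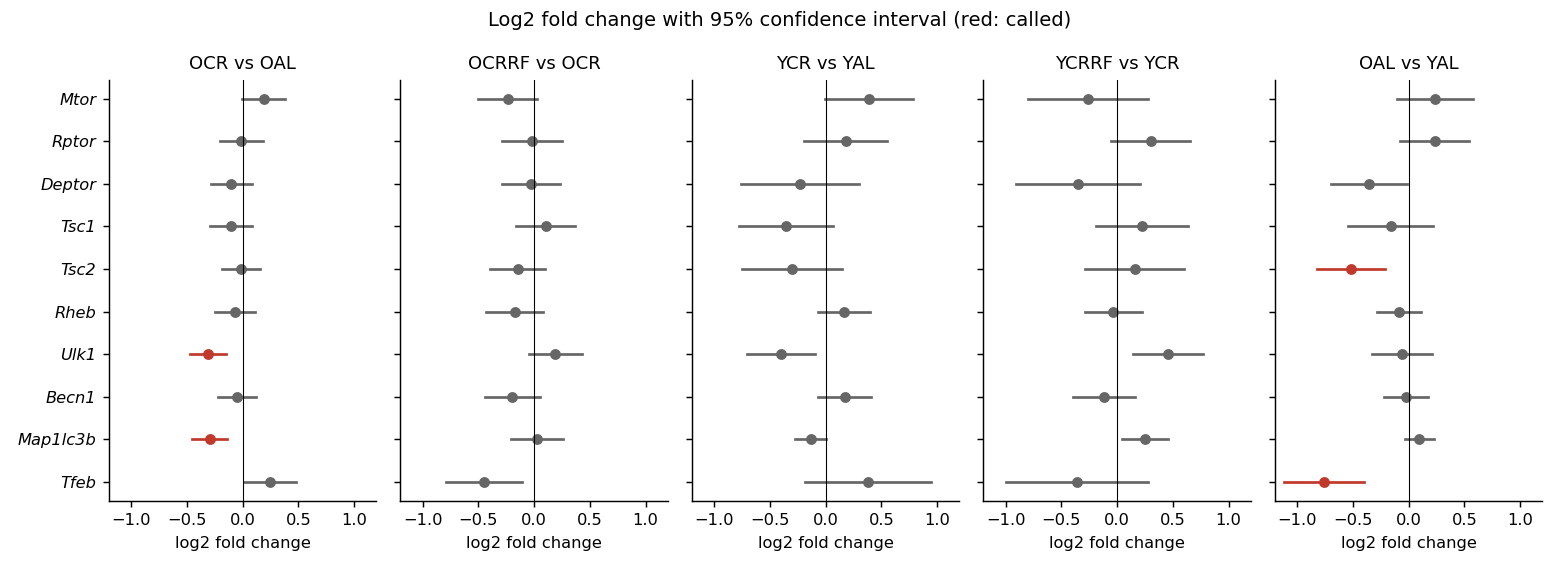
Log2 fold change (horizontal axis) of the 10 genes with its 95% confidence interval in 5 comparisons between diet groups, from the edgeR fit of each comparison, with called genes in red. Ulk1 and Map1lc3b are the called genes of OCR vs OAL and Tsc2 and Tfeb those of OAL vs YAL, and no gene is called in the other 3 panels.

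A list of 137 genes of the same pathways, which includes the 10, placed these 2 genes in a wider group. In OCR HSCs 13 of the 137 genes fell, none rose and 124 did not pass, where 3.03% of all tested genes were called lower and 2.54% higher. Such shares over all tested genes, here and elsewhere, include genes under 5 CPM. The share called among genes at the levels of this list was not computed. The median log2 fold change over the list was -0.083, against 0.023 over all tested genes and -0.028 over those above 5 CPM. The largest decrease was that of Tecpr1, a factor in the fusion of autophagosomes with lysosomes, which stood at 84.3, 86.9, 74.9 and 99.9 CPM in OAL and at 50.5, 51.0, 54.5 and 60.4 CPM in OCR libraries. No OCR library reached the lowest OAL library, and the log2 fold change was -0.66 (SE 0.094, edgeR adjusted p = 1.627e-05). Gabarapl1, an ATG8 family gene related to Map1lc3b, fell by 0.41 on the log2 scale (SE 0.078, edgeR adjusted p = 0.000844), from 272.2 to 307.7 CPM in OAL down to 209.3 to 232.5 CPM in OCR libraries. Sqstm1, which encodes the autophagy receptor p62, fell by 0.29 (edgeR adjusted p = 0.0177), from 261.0 to 272.1 CPM down to 199.8 to 224.8 CPM.

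By role, the calls were spread over 6 of 10 groups, and no group was tested against the others. Of 22 genes of the TFEB family and the lysosome, 5 fell and 17 did not pass, beside the 3.03% called lower over all tested genes. The 5 were Mcoln1, a lysosomal calcium channel gene (log2 fold change -0.31), the cathepsin genes Ctsb (-0.29), Ctsd (-0.29) and Ctsl (-0.29), and Gaa, the acid alpha-glucosidase gene (-0.30), with edgeR adjusted p from 0.0142 to 0.0327. Among 29 genes of amino acid sensing, Rragb, which encodes a Rag GTPase (-0.38), Sesn1, a sestrin gene (-0.29), and Itfg2, of the KICSTOR complex (-0.29), fell. No gene was called among the 10 of the mTOR complexes, the 14 of the TSC complex and its inputs, the 8 of the Beclin 1 complex and the 10 translation targets of mTORC1, by edgeR. Prkaa2 is one of the 14 of the TSC complex and its inputs. The paper, which used DESeq2, reports it as significantly lower in OCR than in OAL HSCs, as it does for Ulk1 and Sqstm1. The plot of pathway genes by role shows the 13 called genes on the left. DESeq2 called 16 of the 137 genes. The count fell to 5 without replicate 2 of OAL, to 6 without replicate 1 of OAL and to 3 in the fit of all groups. With scaling factors taken from genes above 5 CPM, 9 of the list were lower and 1 higher, and over all genes 894 of 1591 calls were higher, in place of 689 of 1511.

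**Figure D3:**
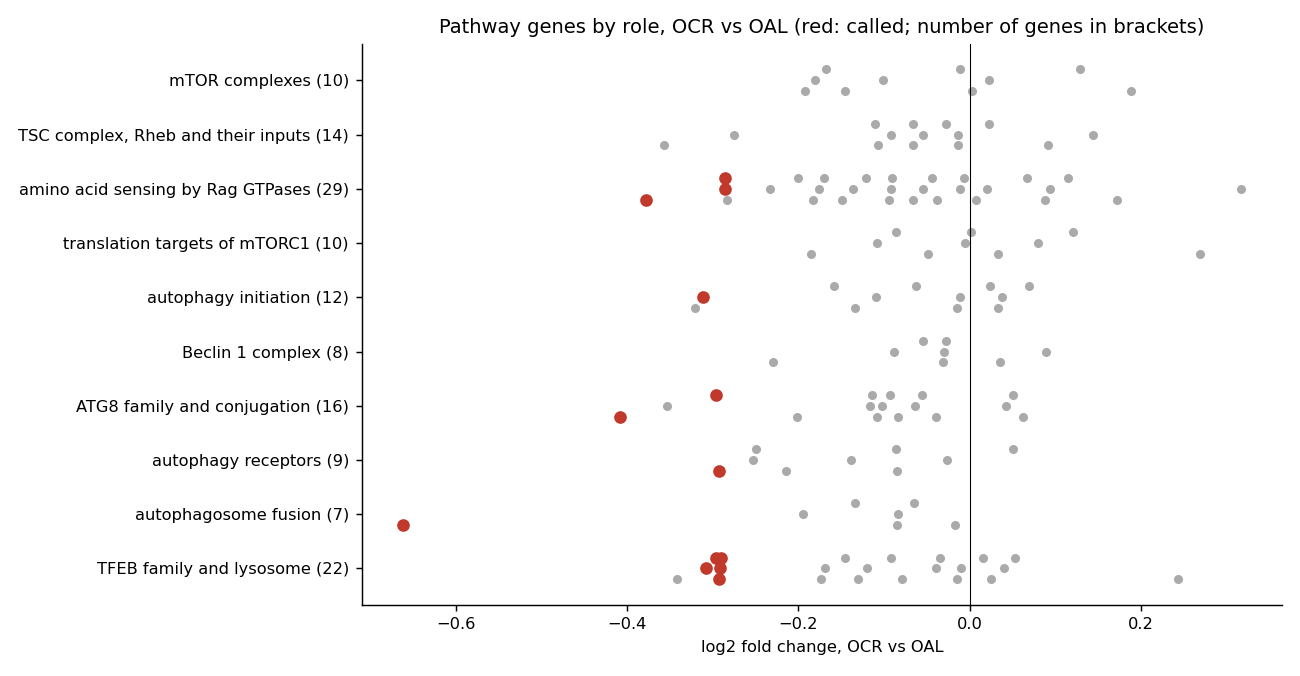
Log2 fold change of OCR against OAL (horizontal axis) for the 137 pathway genes, 1 point per gene, grouped by role with the number of genes in brackets (rows are staggered for legibility). The 13 genes that passed the test, in red, have log2 fold changes between -0.66 and -0.29, and none is to the right of 0.

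Other marker lists moved between the same libraries. All 10 proliferation genes rose in OCR HSCs, with summed levels of 156.3 to 182.9 CPM in OAL and 466.4 to 679.7 CPM in OCR libraries, and 4 of 10 stem cell markers fell, with sums of 4727 to 5386 CPM in OAL and 4139 to 4851 CPM in OCR libraries. Of 7 erythroid markers 3 fell, with sums of 35.9 to 228.7 CPM in OAL and 34.8 to 66.6 CPM in OCR libraries, and of 7 neutrophil and monocyte markers 1 rose, with sums of 401.6 to 488.1 and 380.8 to 449.8 CPM. Of 3 endothelial markers 1 fell, with sums of 93.1 to 119.0 CPM in OAL and 75.4 to 84.0 CPM in OCR libraries. No marker of these lists was at 0 in either group. The part of these cell types and of cycling in the lower Ulk1 and Map1lc3b levels was not tested.

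Short-term CR was compared with ad lib feeding in young HSCs, and no member was called. In YCR vs YAL 0.257% of all tested genes were called, and none of the 10 genes, by edgeR or by DESeq2, with 1 gene at an unadjusted p under 0.05. That gene was Ulk1, which measured 142.1, 208.4, 131.4 and 165.4 CPM in YAL and 131.7, 128.5, 117.1 and 106.5 CPM in YCR libraries. The highest YCR library was just above the lowest YAL library, and the log2 fold change was -0.40 (95% confidence interval -0.70 to -0.095, edgeR adjusted p = 0.37). Map1lc3b was the 1 gene of the 10 whose groups did not overlap, against 6.32% of all tested genes, at 391.9, 413.9, 380.4 and 422.5 CPM in YAL and 368.4, 367.3, 364.0 and 344.5 CPM in YCR libraries. Its log2 fold change was -0.13 (SE 0.064, edgeR adjusted p = 0.573). Mtor was at 44.0 to 78.0 CPM in YAL and 65.4 to 82.2 CPM in YCR libraries, which is a change of 0.39 on the log2 scale (95% confidence interval -0.0036 to 0.78, edgeR adjusted p = 0.546).

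The 13 pathway genes chosen for their decrease in OCR HSCs were then read in the young libraries, which took no part in that choice. All 13 had a negative log2 fold change in YCR vs YAL, with a median of -0.25, while over the 137 genes the median was -0.063 and 81 were negative. Of the 13, 8 had an unadjusted p under 0.05, where 1735 of 18680 tested genes did. The other genes called lower in OCR HSCs were not followed in the young libraries, so whether these values are particular to the pathway was not tested. No gene of the 137 was called by edgeR, 17 had an unadjusted p under 0.05, and DESeq2 called 4. Among the 13, Tecpr1 had the most negative value (log2 fold change -0.62, SE 0.12, edgeR adjusted p = 0.0705), followed by Ulk1 at -0.40. Of 10 proliferation markers 1 rose in YCR HSCs, with summed levels of 227.8 to 263.3 CPM in YAL and 352.0 to 444.3 CPM in YCR libraries, no marker of the other lists was called, and the part of proliferation in these values was not tested. The difference between the 2 responses to CR was tested directly in 1 fit. No member passed the test of a difference between old and young by edgeR (0 at an unadjusted p under 0.05) or by DESeq2. Over all tested genes edgeR called 0.0424%, or 12 genes, and DESeq2 called 239. For Ulk1 the old response minus the young one was 0.099 (95% confidence interval -0.23 to 0.43), and for Map1lc3b it was -0.15 (-0.32 to 0.023).

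Refeeding was compared both with CR and with ad lib feeding. In old HSCs no member was called in OCRRF vs OCR by edgeR, where 3.41% of all tested genes were, 1 member had an unadjusted p under 0.05, and DESeq2 called 1 (Tfeb). Ulk1 in the OCRRF libraries was at 156.7 and 134.1 CPM, both above the 4 OCR libraries, with a log2 fold change of 0.19 (95% confidence interval -0.051 to 0.43, edgeR adjusted p = 0.425). With scaling factors from genes above 5 CPM, which shifted the fold changes of this comparison upwards by a median of 0.13 on the log2 scale, Ulk1 was called higher at 0.32. Map1lc3b, the other gene called in OCR vs OAL, had a log2 fold change of 0.029 (95% confidence interval -0.20 to 0.26, edgeR adjusted p = 0.924). Its OCRRF and OCR libraries overlapped. Tfeb in the OCRRF libraries was at 11.9 and 18.4 CPM, both below the 4 OCR libraries, with a log2 fold change of -0.45 (95% confidence interval -0.79 to -0.11, edgeR adjusted p = 0.148). Tecpr1, at 86.8 and 75.2 CPM, was the single pathway gene called, with its log2 fold change at 0.53 (SE 0.12, edgeR adjusted p = 0.00855), and it was not called without replicate 1 of OCRRF. The OCR libraries of this comparison are those in which the 13 genes were found to be low, so values of these genes here are not independent of that choice. All 10 proliferation markers fell in OCRRF vs OCR (466.4 to 679.7 CPM in OCR and 171.5 to 176.8 CPM in OCRRF libraries). Of 7 erythroid markers 3 rose (34.8 to 66.6 and 58.8 to 155.4 CPM), of 6 B cell markers 2 rose (36.6 to 44.7 and 46.3 to 49.4 CPM) and of 3 endothelial markers 1 rose (75.4 to 84.0 and 90.0 to 119.2 CPM). Of 5 megakaryocyte and platelet markers 1 rose and 3 fell (665.3 to 871.9 and 828.3 to 954.0 CPM), and of 10 stem cell markers 1 rose and 1 fell. No marker was at 0 in either group, and the part of these lists in the values above was not tested.

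Against OAL HSCs, Map1lc3b of refed old HSCs was again at a lower level. It was at 371.0 and 358.1 CPM in OCRRF libraries, below the 4 OAL libraries, with its log2 fold change at -0.24 (SE 0.062, edgeR adjusted p = 0.0415). Much of that decrease was shared, since all tested genes above 5 CPM had a median log2 fold change of -0.144 in this comparison. For Map1lc3b, the fold change was also under the minimum of 1.2-fold that a call required. No member was therefore called in OCRRF vs OAL, against 4.14% of all tested genes, 3 members had an unadjusted p under 0.05, and DESeq2 called 3 (Map1lc3b, Rheb and Becn1). Of the 137 pathway genes 7 fell and 0 rose, where 788 of 31816 tested genes were called lower and 528 higher. The median log2 fold change of the 137 was -0.147, close to that of all tested genes above 5 CPM. The count is therefore not read as a result about the pathway. Among the 7 were Vamp8, a SNARE of autophagosome fusion (log2 fold change -0.35), and Ctsd (-0.34). This comparison was the most dependent on scaling: factors from genes above 5 CPM shifted its fold changes upwards by a median of 0.14 and left no pathway gene called, while DESeq2's size factors gave 33. Of 10 stem cell markers 4 fell (4727 to 5386 CPM in OAL and 4169 to 4196 CPM in OCRRF libraries), of 6 B cell markers 2 rose (38.1 to 43.5 and 46.3 to 49.4 CPM), of 7 neutrophil and monocyte markers 1 rose (401.6 to 488.1 and 445.7 to 466.9 CPM) and of 5 megakaryocyte and platelet markers 1 fell (770.2 to 1013 and 828.3 to 954.0 CPM). None was at 0 in either group. Olfactory and vomeronasal receptor genes took 1213 and 1553 CPM in OCRRF libraries and 553 to 788.3 CPM in OAL libraries, and the part of these differences was not tested. With any 1 of its 6 libraries left out, 0 to 2 pathway genes were called.

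In young HSCs the refed libraries lay above the CR libraries for both Ulk1 and Map1lc3b, without passing the test. Ulk1 in YCRRF libraries was at 171.8, 202.6, 135.4 and 161.6 CPM, all above the 4 YCR libraries, with a log2 fold change of 0.46 (95% confidence interval 0.15 to 0.77, edgeR adjusted p = 0.427). Map1lc3b in YCRRF libraries was at 437.6, 450.2, 402.3 and 451.3 CPM, also above all YCR libraries, with a log2 fold change of 0.25 (95% confidence interval 0.047 to 0.46, edgeR adjusted p = 0.551). Without replicate 3 of YCRRF, the library that stood apart, the log2 fold changes were 0.55 for Ulk1 and 0.29 for Map1lc3b. All 13 pathway genes that fell in OCR HSCs had a positive log2 fold change in YCRRF vs YCR (median 0.25), and over the 137 genes the median was 0.085. None of the 13 was called, and 9 had an unadjusted p under 0.05, where 1420 of 19535 tested genes did. Other genes called lower in OCR HSCs were not followed here either. The YCR libraries serve in both young comparisons, so their values are given side by side only. YCRRF vs YCR had 0.0102% of tested genes called and YCRRF vs YAL 0%. Members with an unadjusted p under 0.05 numbered 2 in each, and neither edgeR nor DESeq2 called a member. Against YAL these were Rptor (log2 fold change 0.48) and Deptor (log2 fold change -0.58), both with an edgeR adjusted p of 0.995.

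Age was compared in ad lib HSCs. Tfeb and Tsc2 fell in OAL vs YAL and no member rose. Tfeb (ENSMUSG00000023990, chr17:47737030-47792419, plus strand) measured 21.2, 31.2, 34.0 and 28.6 CPM in YAL and 18.5, 15.0, 17.4 and 16.5 CPM in OAL libraries. Every OAL library was below every YAL library, and the log2 fold change was -0.76 (SE 0.16, edgeR adjusted p = 0.0121), a decrease of 41%. Tfeb was called under each alternative run, with log2 fold changes from -0.89 to -0.65. Tsc2 (ENSMUSG00000002496, chr17:24595816-24632630, minus strand), whose product restrains Rheb, measured 106.2, 184.3, 148.6 and 132.3 CPM in YAL and 110.4, 96.9, 93.6 and 95.2 CPM in OAL libraries. The groups overlapped by 1 library on each side. Its log2 fold change was -0.52 (SE 0.14, edgeR adjusted p = 0.0296), and the call did not hold with scaling factors from genes above 5 CPM (adjusted p = 0.0807), with at least 10 counts in every library (0.0632), with the replicate block (0.0661) or without any 1 of the 4 OAL libraries (0.0572 to 0.0889). Of the exon bases of Tsc2 7.2% are shared with Pkd1 on the opposite strand, and Pkd1 had a log2 fold change of -0.24 (edgeR adjusted p = 0.0378), under the minimum fold. Calls were common in this comparison, at 14.8% of all tested genes, with 6.89% higher and 7.93% lower, and the factors from genes above 5 CPM shifted its fold changes upwards by a median of 0.11. The number of genes detected differed between the old and young libraries as given above, and this and age cannot be told apart.

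Of the 137 pathway genes 4 rose and 15 fell with age, a count near the background of 14.8% of all tested genes and so no result about the pathway. Lamp2, a lysosomal membrane protein gene, rose from 201.8 to 228.0 CPM in YAL up to 295.4 to 355.0 CPM in OAL libraries (log2 fold change 0.63, edgeR adjusted p = 0.000806). Ddit4, whose product REDD1 inhibits mTORC1 through the TSC complex, rose by 1.68 on the log2 scale (edgeR adjusted p = 0.00238), from 3.56 to 7.18 CPM up to 13.5 to 17.0 CPM, and the SNARE gene Snap29 rose by 0.84. Those that fell included Stk11, which encodes the AMPK kinase LKB1 (log2 fold change -0.65), Rps6kb2, an S6 kinase gene (-0.43), and Sqstm1 (-0.28). With factors from genes above 5 CPM, 7 of the list were higher and 3 lower, and the count of 19 became 7 without replicate 1 or replicate 2 of OAL, 10 without replicate 3 and 8 without replicate 4. Marker lists moved between the same libraries. Of 6 B cell markers 4 fell (summed levels of at least 62.4 CPM in YAL and 38.1 to 43.5 CPM in OAL libraries), as did Cd34, Flt3 and Cd48 (173.2 to 222.8 and 128.6 to 160.4 CPM), 3 of 10 proliferation genes (227.8 to 263.3 and 156.3 to 182.9 CPM) and 1 of 10 stem cell markers. The sort of these HSCs selected against CD34 and Flk2 (Flt3) but not against CD48. Of 7 erythroid markers 2 fell (51.5 to 150.4 and 35.9 to 228.7 CPM), as did 2 of 7 neutrophil and monocyte markers (426.7 to 869.7 and 401.6 to 488.1 CPM). Of 5 megakaryocyte and platelet markers 2 rose (517.4 to 645.1 and 770.2 to 1013 CPM), and 1 of 3 T cell markers tested rose. No marker was at 0 in either group, and the part of these lists in the age differences was not tested. Kdr and Bmpr1a, the later knockdown targets, were higher in OAL than in YAL HSCs (log2 fold changes 0.81 and 2.18) and lower in OCR than in OAL HSCs (log2 fold changes -1.14 and -0.76).

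Neither knockdown moved a member past the test. In KKD vs GSCR 0.0149% of all tested genes were called and in DKD vs DSCR 0.00498%, and no member was called in either by edgeR or DESeq2. Members with an unadjusted p under 0.05 numbered 3 in KKD and 1 in DKD HSCs, where 1789 of 20098 and 1977 of 20072 tested genes had such a p. No marker gene was called in either knockdown, but the summed levels of several lists did not overlap between the groups. In KKD against GSCR libraries Cd34, Flt3 and Cd48 together were at 493.0 to 588.7 and 398.7 to 474.9 CPM. The sort of transplanted HSCs selected against CD48 but not against CD34 or Flk2 (Flt3). Stem cell markers were at 3419 to 3801 and 3999 to 4222 CPM, and megakaryocyte and platelet markers at 373.5 to 422.1 and 469.8 to 519.2 CPM. Proliferation genes were at 854.4 to 1039 and 741.7 to 841.3 CPM, endothelial markers at 83.9 to 119.6 and 79.5 to 82.0 CPM, and B cell markers at 36.6 to 53.6 and 29.2 to 35.8 CPM. In DKD against DSCR libraries Cd34, Flt3 and Cd48 together were at 592.3 to 925.0 and 496.1 to 540.9 CPM, endothelial markers at 91.7 to 106.5 and 79.9 to 83.7 CPM, and B cell markers at 43.0 to 55.3 and 30.4 to 39.2 CPM. The endothelial marker Cdh5 was at 0 in KKD and DKD libraries and the B cell marker Pax5 in GSCR, DSCR and DKD libraries. The part of these lists in the knockdown values was not tested.

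Becn1 (ENSMUSG00000035086, chr11:101285952-101302286, minus strand) was the gene of the list that stood above its controls in both experiments. It was at 178.7 and 176.3 CPM in GSCR and at 215.8, 248.2, 218.1 and 204.1 CPM in KKD libraries, with a log2 fold change of 0.32 (95% confidence interval 0.12 to 0.52, edgeR adjusted p = 0.363). In the double knockdown it was at 191.7 and 194.7 CPM in DSCR and at 219.5, 220.1, 224.5 and 207.7 CPM in DKD libraries, with a log2 fold change of 0.18 (95% confidence interval 0.048 to 0.30, edgeR adjusted p = 0.375). All knockdown libraries were above all scramble libraries in both. Of the exon bases of Becn1 43.9% are also exon bases of Cntd1 on the opposite strand, and Cntd1 moved alongside it, by 0.36 in KKD (edgeR adjusted p = 0.374) and 0.24 in DKD HSCs (edgeR adjusted p = 0.413), so reads of these genes cannot be told apart if the counting ignored strand, which is not given in the sources used here.

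Mtor and Rptor were at lower levels in KKD than in GSCR libraries without passing the test, while of 10 genes of the mTOR complexes 5 had a positive and 5 a negative log2 fold change. Mtor was at 66.1 and 59.4 CPM in GSCR and at 50.6, 29.9, 51.3 and 52.9 CPM in KKD libraries. The groups did not overlap, and the log2 fold change was -0.44 (SE 0.20, edgeR adjusted p = 0.571), or -0.28 without replicate 2 of KKD, which lay far below the other KKD libraries. Rptor was at 48.9 and 50.6 CPM in GSCR and at 44.5, 34.0, 44.2 and 41.8 CPM in KKD libraries, with its log2 fold change at -0.27 (SE 0.12, edgeR adjusted p = 0.56). For Tsc2, which shares exon bases with Pkd1, the log2 fold change was -0.21 in KKD (SE 0.077, edgeR adjusted p = 0.502, with Pkd1 at -0.33) and -0.21 in DKD HSCs (SE 0.097, edgeR adjusted p = 0.53). In KKD 5 of the 10 genes had groups without overlap, against 21.9% of all tested genes, and in DKD 2 of 10, against 21.3%. Map1lc3b and Ulk1, which fell in OCR HSCs, had log2 fold changes of 0.14 (95% confidence interval -0.090 to 0.37) and -0.12 (-0.34 to 0.10) in KKD and of 0.084 (-0.038 to 0.21) and -0.026 (-0.19 to 0.13) in DKD HSCs. None of the 137 pathway genes was called in either knockdown by edgeR, and DESeq2 called 1 in KKD and 2 in DKD HSCs. An unadjusted p under 0.05 was found for 19 and 22 of the 137, and for 1789 of 20098 and 1977 of 20072 tested genes. Tested directly, no member passed the test of a difference between the double and the single knockdown response by edgeR (0 at an unadjusted p under 0.05) or DESeq2. Over all tested genes edgeR called 0% and DESeq2 called 3 genes.

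**Figure D4:**
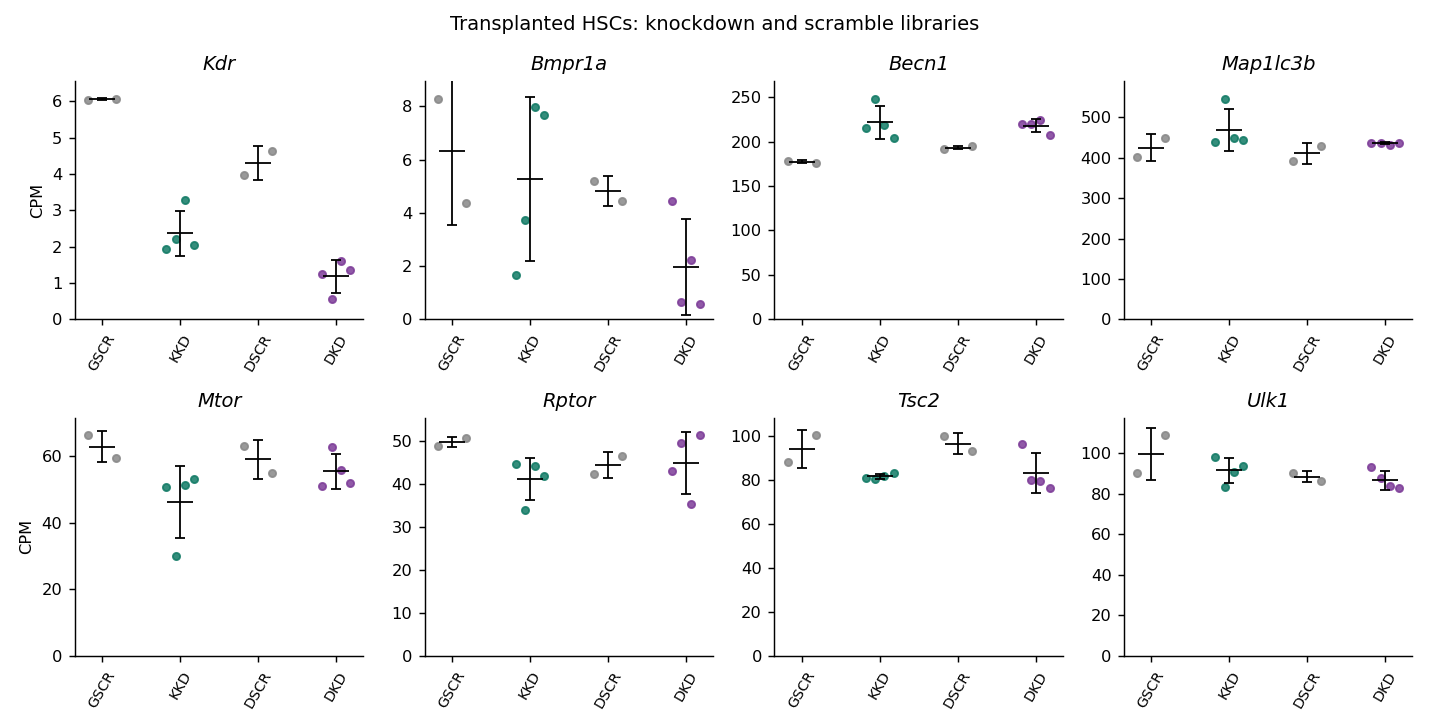
CPM (vertical axes, starting at 0) of the knockdown targets Kdr and Bmpr1a and of 6 of the 10 genes in transplanted HSCs, 1 point per library, with the group mean and SD in black. Becn1 of all KKD and DKD libraries (204.1 to 248.2 CPM and 207.7 to 224.5 CPM) lies above its scramble libraries, and Mtor of replicate 2 of KKD (29.9 CPM) lies below the other KKD libraries.

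ATAC-seq, which measures open chromatin, was analysed in 4 OCR and 2 OCRRF libraries of old HSCs. Of the consensus peaks, 61 lay within 1 kb of a transcription start or in the body of the 10 genes, and 60 had enough counts to be tested. Each gene had an accessible promoter, and levels differed widely among them. The Deptor promoter peak (chr15:55111940-55113765, mm10) had the highest CPM, at 85.2, 93.8, 95.6 and 83.6 CPM in OCR libraries, and the Becn1 promoter peak (chr11:101301782-101302629) had the lowest, at 6.29, 4.61, 4.94 and 6.95 CPM. Peaks differ in width, so these levels are not per length. No peak of the 10 genes was called in OCRRF vs OCR by edgeR, where 0.221% of all tested peaks were. Of the 60 peaks 14 had an unadjusted p under 0.05. The share of all tested peaks with such a p was not computed, so this count is not read as a result about the 10 genes. Over all peaks 273 were called. This count fell to 99 without replicate 1 and 139 without replicate 2 of OCR and to 98 and 119 without replicates 1 and 2 of OCRRF, and it was 764 with the replicate block. The Deptor peak was at 104.3 and 105.5 CPM in OCRRF libraries, above all OCR libraries, with its log2 fold change at 0.23 (SE 0.061, edgeR adjusted p = 0.0689). The Becn1 peak was at 4.97 and 2.12 CPM in OCRRF libraries, 1 within and 1 below the OCR range, with a log2 fold change of -0.67 (95% confidence interval -1.17 to -0.18, edgeR adjusted p = 0.228). The promoter peak of Ulk1 was at 27.1, 25.9, 28.0 and 31.2 CPM in OCR and 26.1 and 25.2 CPM in OCRRF libraries (log2 fold change -0.13, 95% confidence interval -0.32 to 0.065), and that of Map1lc3b at 14.9, 16.0, 18.1 and 16.6 CPM and 16.6 and 14.3 CPM (-0.084, -0.33 to 0.16). The groups overlapped at both.

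**Figure D5:**
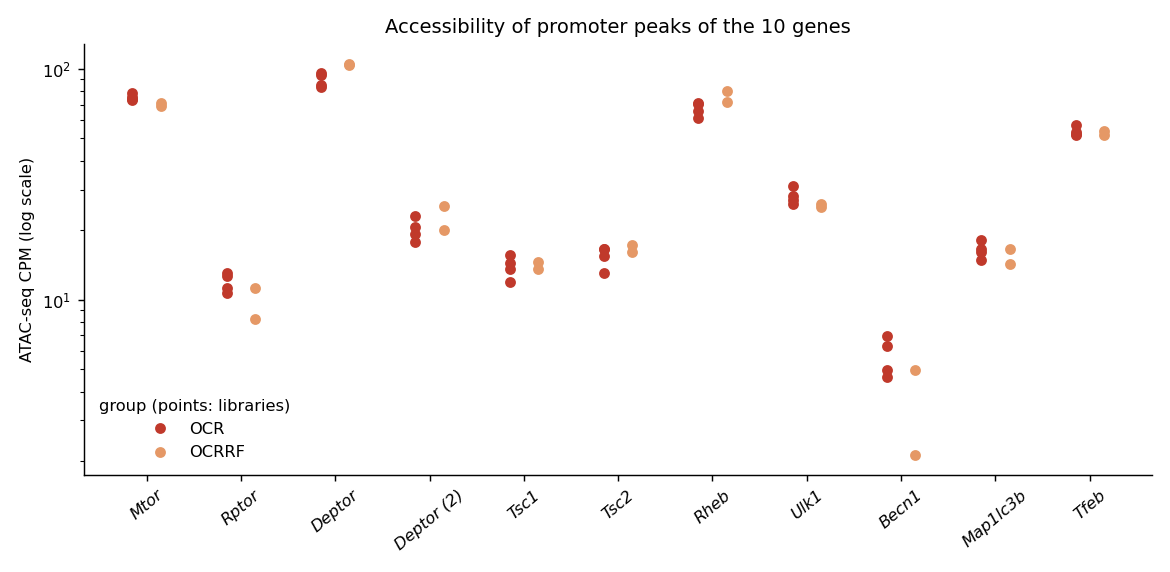
ATAC-seq CPM on a log scale (vertical axis) of the 11 promoter peaks of the 10 genes in OCR (dark) and OCRRF (light) libraries, 1 point per library; Deptor has a second promoter peak. The Deptor and Becn1 peaks mark the highest and lowest CPM, which are not scaled to peak width, and no peak differed enough between the groups to be called.

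Histone marks were analysed in 2 OCR libraries each. H3K4me3, a mark of active promoters, was high at the main start site of all 10 genes, with a signal per base of 15.4 to 48.9 against a median of 9.64 to 10.2 over all promoters. Map1lc3b was the highest, at 48.9 and 48.6, in the 98.6 and 99.1 percentile of all promoters, and Tsc2 the lowest, at 16.8 and 15.4, in the 57.4 and 56.8 percentile. Ulk1 was at 32.8 and 31.5. H3K27me3, a mark of Polycomb repression, ran from 0.040 to 0.305 per base at these start sites, below the medians of 0.312 and 0.316 over all promoters. Both Deptor and Tfeb also have an annotated start with little H3K4me3, at 0.430 and 0.947 for the downstream Deptor start and 0.294 and 0.137 for the downstream Tfeb start. No test was run on these signals, and how they compare with OAL HSCs was not analysed here.

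The promoters of Ulk1 and Map1lc3b are shown because these are the genes called in OCR HSCs. The stretches below run 5′ to 3′ on the strand of the gene, from RefSeq promoters of GRCm38 (the build of mm10), and end before the first annotated exon.
Ulk1 promoter, chr5:110810098-110810331, minus strand: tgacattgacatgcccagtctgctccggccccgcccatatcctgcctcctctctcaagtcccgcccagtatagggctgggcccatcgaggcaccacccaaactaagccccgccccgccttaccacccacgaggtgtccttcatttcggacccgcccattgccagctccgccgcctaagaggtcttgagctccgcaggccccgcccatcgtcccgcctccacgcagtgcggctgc
Map1lc3b promoter, chr8:121590188-121590360, plus strand: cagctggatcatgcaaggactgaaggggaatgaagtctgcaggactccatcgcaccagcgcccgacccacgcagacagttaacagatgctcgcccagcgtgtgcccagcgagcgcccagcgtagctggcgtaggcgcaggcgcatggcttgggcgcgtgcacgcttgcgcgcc
Neither stretch holds CACGTG, the palindromic E-box that TFEB and related factors can bind. RefSeq promoters were found for 8 of the 10 genes (Becn1 and Deptor had no entry in the table used here), and within 250 bases before the start 1 of the 8, that of Rheb, held CACGTG. Over all genes with a promoter 6.86% held it, over the pathway genes 21.6% (25 of 116), and of the 13 genes that fell in OCR HSCs 12 had a promoter and 5 of these held it.

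The sites of Rheb and of these 5 genes are shown with CACGTG in capitals. All coordinates are GRCm38.
Rheb, chr5:24842440-24842469, minus strand: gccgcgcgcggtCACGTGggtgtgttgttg
Mcoln1, chr8:3500436-3500465, plus strand: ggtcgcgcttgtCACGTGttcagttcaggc
Mcoln1, chr8:3500462-3500491, plus strand: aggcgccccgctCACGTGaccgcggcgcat
Ctsd, chr7:142387908-142387937, minus strand: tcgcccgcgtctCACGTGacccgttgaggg
Ctsl, chr13:64370739-64370768, minus strand: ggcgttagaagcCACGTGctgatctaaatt
Gaa, chr11:119267811-119267840, plus strand: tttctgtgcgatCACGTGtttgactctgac
Rragb, chrX:153139819-153139848, plus strand: gagagcccgggcCACGTGatggcgggtggc
Rragb, chrX:153139910-153139939, plus strand: aaagggtagcggCACGTGacaggccctggg
Ctsd has a further match at 245 bases before its start. A match is a run of letters and says nothing of binding in these cells.

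PU.1 ChIP-seq, of a transcription factor of myeloid and lymphoid development, gave peak lists for 2 OAL, 2 OCR and 2 OCRRF libraries. There were 2262 to 5464 peaks per library, with the most in OCR. The number of the 10 genes with a peak in the body was 3 and 1 in OAL, 4 and 4 in OCR, and 1 and 1 in OCRRF libraries. How far these counts depend on the length of the list or of the genes was not tested. The share of all genes with a peak in the body or within 5 kb of a start was not computed. Peaks were called by the authors in each library. Rheb had a peak in its body in all 6 libraries, at 28012 to 28037 bases from its start, with fold enrichments of 9.33 and 12.8 in OAL, 15.8 and 11.2 in OCR and 11.3 and 8.18 in OCRRF libraries. The OCR and OAL values overlapped. Mtor had an intronic peak in replicate 1 of OAL and both OCR libraries (fold enrichments 7.12, 7.38 and 8.67), as did Rptor (5.42, 8.61 and 6.20). Becn1 was the only one of the 10 genes with a peak within 5 kb of a start, in both OCR libraries (fold enrichments 6.14 and 7.34) and in no OAL or OCRRF library. The other 6 genes had no peak within 5 kb of a start or in the body in any library. No test was run, and the names of the deposited files give a different antibody for each of the 2 replicates.

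The sequences of the Rheb, Mtor and Rptor peaks are shown because they lie in introns of mTORC1 genes and recur across libraries. Each run is 300 bases on the plus strand of GRCm38, centred on the stretch shared by the libraries, with AGGAAGT, a core of the PU.1 motif, or its complement ACTTCCT in capitals.
Rheb intron, chr5:24814032-24814331: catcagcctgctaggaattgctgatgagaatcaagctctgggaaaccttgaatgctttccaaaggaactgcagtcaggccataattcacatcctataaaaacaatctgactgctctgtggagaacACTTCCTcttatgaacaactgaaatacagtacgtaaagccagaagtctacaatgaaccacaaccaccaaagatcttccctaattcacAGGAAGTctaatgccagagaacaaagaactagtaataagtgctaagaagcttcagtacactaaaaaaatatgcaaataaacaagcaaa
Mtor intron, chr4:148509397-148509696: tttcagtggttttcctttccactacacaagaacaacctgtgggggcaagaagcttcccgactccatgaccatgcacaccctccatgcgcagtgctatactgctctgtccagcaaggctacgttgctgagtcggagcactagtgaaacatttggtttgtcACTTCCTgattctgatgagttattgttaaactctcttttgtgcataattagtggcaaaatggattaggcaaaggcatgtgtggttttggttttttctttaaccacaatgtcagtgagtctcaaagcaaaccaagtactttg
Rptor intron, chr11:119709175-119709474: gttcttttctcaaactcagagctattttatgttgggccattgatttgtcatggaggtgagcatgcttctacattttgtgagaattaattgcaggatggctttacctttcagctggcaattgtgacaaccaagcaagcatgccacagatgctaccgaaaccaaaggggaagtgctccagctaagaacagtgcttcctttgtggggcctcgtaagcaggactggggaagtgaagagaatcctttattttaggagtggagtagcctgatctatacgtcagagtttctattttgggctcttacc
The Rheb peak held 2 matches and the Mtor peak 1, the Rptor peak held none, and 52.7 to 55.1% of all peaks of a library held at least 1 in a window of 300 bases. The ATAC-seq peak over the Rheb site (chr5:24813873-24814549) was at 5.09 to 7.16 CPM in OCR and 5.99 and 6.29 CPM in OCRRF libraries, with its log2 fold change at 0.072 (SE 0.19).

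As a description of how the 10 genes varied across the 22 diet libraries, which also share differences in age and depth, each was compared with the 12327 genes above 5 CPM. The genes most alike were Prxl2a for Map1lc3b (Pearson r = 0.89), Eme2 for Ulk1 (r = 0.86), Vasp and Cbfa2t3 for Tfeb (r = 0.89 for both), Edem2 for Rheb (r = 0.95) and Acap2 for Mtor (r = 0.88, after the gene model Gm3325 at 0.91). For Rptor the highest value was lower, at 0.76 with Uxt. Tsc2 was most alike Rpain (r = 0.89), Tsc1 was most alike Zfp12 (r = 0.81), Deptor was most alike Mrnip (r = 0.89), and Becn1 was most alike Bin3 (r = 0.89).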

How the data were processed

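RNA-seq counts per gene, ATAC-seq counts per consensus peak, histone signal per promoter and PU.1 peak lists of mouse HSCs were used. The authors trimmed reads with trim galore and cutadapt, mapped RNA-seq reads to mm10 (STAR) and assigned them to genes of GENCODE M22 (featureCounts). The deposited counts are whole numbers without normalization. Settings for strand and for multi-mapping reads are not given in the sources used here. The authors deposited ATAC-seq counts in consensus peaks (BWA, MACS2), histone signal as a mean per base in a promoter window, and PU.1 peaks with a score, a fold enrichment (ratio) and the -log10 of the p-value and q-value. ATAC-seq and histone libraries of OAL HSCs were not analysed here.

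Counts were filtered with filterByExpr, scaled by TMM factors and tested by quasi-likelihood (glmQLFit, glmQLFTest) in edgeR 4.0.16 with R 4.3.3, each comparison on its own groups. Genes were called at an adjusted p (Benjamini-Hochberg over all tested genes) under 0.05 with a change of over 1.2-fold, and peaks with a change of over 1.5-fold and a mean log2 CPM above 1.5. CPM in the text use 1 set of TMM factors per experiment. SEs are the absolute log2 fold change over the square root of F. Exon lengths came from GENCODE M21. Alternatives were DESeq2 1.42.0, its size factors, other filters and TMM factors, no minimum fold, a replicate block, all groups in 1 fit and each library left out. The scripts were tested on simulated counts, with known changes put into genes above 5 CPM. Of changes of 1.25-fold, 14.9% were called in OCR vs OAL, 2.99% in YCR vs YAL and 7.46% in KKD vs GSCR. Of changes of 1.5-fold, the shares were 80.6%, 16.4% and 52.2%. A gene without a call can therefore have changed by such a fold, above all in young and transplanted HSCs.

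Named genes were the 10 members, the knockdown targets, the pathway genes called (up to 16 by adjusted p in OCR vs OAL and up to 6 elsewhere) and the 2 genes most alike each member over the diet libraries. Genes overlapping a member and the 13 genes followed in other comparisons were added after values were seen. The members, the lists and the tests were chosen with earlier results of these data known. The paper lists read totals for the PU.1 and histone libraries, and these were not used here. The number of libraries and the total counts limit precision, and intervals of fold changes cover the spread between libraries.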

Additional observations from a re-analysis of the deposited data

Results flagged for a closer look

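Each set of values from a group of 4 libraries was screened for 1 library far from the other 3 by Dixon's 95% critical value on the gap over the range. The 7 values below were found, where chance alone gives about 5.9. Mtor in KKD HSCs was at 29.89 CPM in replicate 2 and at 50.6 to 52.9 CPM in the others, and Map1lc3b in the same library was at 546.5 CPM against 438.7 to 448.9 CPM. Deptor in KKD HSCs was at 69.27 CPM in replicate 3 and at 62.5 to 62.9 CPM in the others. Map1lc3b in DKD HSCs was at 432.4 CPM in replicate 3 against 436.9 to 437.4 CPM, a narrow range. Rptor in OCR HSCs was at 46.49 CPM in replicate 2 against 39.4 to 40.0 CPM. Gaa in OAL HSCs was at 310.6 CPM in replicate 2 against 281.2 to 285.8 CPM, above all OCR libraries either way. Kdr in YAL HSCs was at 34.03 CPM in replicate 3 against 20.4 to 22.0 CPM.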

How the results depend on the processing

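Over 1630 alternative values of the log2 fold change of a member, none of a called gene changed sign, 106 of uncalled genes did, 9 lost a call and 11 gained one. Members called in OCR vs OAL numbered 1 in the fit of all groups and 1 to 2 with each library left out. Members called in OCRRF vs OCR numbered 1 with DESeq2 and with TMM factors from genes above 5 CPM, and in OCRRF vs OAL 3 with DESeq2, 3 with its size factors and 1 with no minimum fold. In OAL vs YAL 1 member was called with at least 10 counts in every library, with factors from genes above 5 CPM and with the replicate block, and 1 to 3 with each library left out (Mtor without replicate 2, Rptor without replicate 4 and Deptor without replicate 1 of YAL were gained).

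Pathway genes called in OCR vs OAL were 3 in the fit of all groups and 5 to 13 with a library left out. In YCR vs YAL they were 4 with DESeq2, 4 with no filter, 1 with at least 10 counts and 2 in the fit of all groups. In OCRRF vs OCR they were 14 with DESeq2, 2 with its size factors, 2 with no filter, 5 with factors from genes above 5 CPM, 15 with the replicate block, 0 in the fit of all groups and 0 to 7 with a library left out (3, 7 and 5 without replicates 1, 3 and 4 of OCR, and 0 without replicate 1 of OCRRF). In OCRRF vs OAL they were 51, 33, 17, 3, 0, 16 and 0 with DESeq2, its size factors, no filter, at least 10 counts, factors from genes above 5 CPM, the replicate block and the fit of all groups, and 0 to 2 with a library left out. In YCRRF vs YCR they were 4 with DESeq2, 1 with no filter and 6 in the fit of all groups. In OAL vs YAL they were 10 with at least 10 counts, 10 with factors from genes above 5 CPM, 8 with the block, 11 in the fit of all groups and 7 to 27 with a library left out. In KKD vs GSCR they were 1 with DESeq2 and 1 with no filter, and in DKD vs DSCR 2 with DESeq2. The cause of these changes was not tested.

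RNA-seq libraries with the same replicate number had correlations from -0.26 to 0.22 over the comparisons, with 2 to 4 pairs in each. In KKD vs GSCR both were positive (0.040 and 0.22). So few pairs cannot exclude that the numbers pair libraries, and ATAC-seq libraries were not examined in this way. The replicate block moved no other count of called members or pathway genes by over 1.5 times, while called accessibility peaks over the genome went from 273 to 764. Over all tested genes of YCR vs YAL, DESeq2 called 527 and edgeR 48. The absence of called accessibility peaks at the 10 genes and the genes with a PU.1 peak near the start were the same under each alternative run.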
